A study of Mus musculus with 18 samples.

Results

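The STAT and SOCS genes studied here were Stat2, Stat3, Stat5a, Stat5b, Stat6, Socs1, Socs2, Socs3 and Cish, 9 genes picked by symbol and matched to their mouse Ensembl identifiers. Of these, 8 had a value in at least 1 library, 6 had at least 1 FPKM in at least 3 libraries and were tested, and the whole series held 13393 genes with a value and 9512 that were tested. The libraries were RNA-seq of thioglycolate-elicited peritoneal macrophages from C57BL/6 mice. The TLR4-WT mice carried the unmodified receptor, and the TLR4-K730R and TLR4-K810R mice carried a lysine to arginine change in the TIR domain of TLR4, made with CRISPR/Cas9 and bred from chimeric founders, and zygosity is not given in the sources used here. Cells of each genotype were mock-treated or received LPS at 100 ng/ml and were taken after 6 h, which gave 6 groups of 3 libraries and 18 in all. The labels do not say whether the 3 libraries came from separate animals or cultures, so p-values measure the spread between these libraries, which may be technical. Age and sex were not given in the labels, and a change of 1 amino acid in TLR4 is not visible in these files.

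STAT proteins are transcription factors that wait in the cytoplasm until a cytokine receptor and its JAK kinase phosphorylate them, after which they pair, enter the nucleus and bind DNA. STAT2 works mainly in the complex that type I interferon activates, STAT3 downstream of IL-6 and IL-10, STAT5A and STAT5B downstream of growth factors such as GM-CSF, and STAT6 downstream of IL-4 and IL-13. SOCS proteins and CIS, the product of Cish, are induced by STATs and in turn block the receptor or its kinase, which makes them the feedback arm of the pathway.

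On GRCm38 (GENCODE M21) all 9 are protein-coding genes. Stat5b (ENSMUSG00000020919, chr11:100780731-100850724, minus strand), Stat5a (ENSMUSG00000004043, chr11:100859351-100885169, plus strand) and Stat3 (ENSMUSG00000004040, chr11:100885098-100939540, minus strand) form a cluster. Stat6 (ENSMUSG00000002147, chr10:127642986-127660957) and Stat2 (ENSMUSG00000040033, chr10:128270559-128292849) lie 609601 bp apart, both on the plus strand. The feedback genes are Socs1 (ENSMUSG00000038037, chr16:10782240-10785536, minus strand), Socs2 (ENSMUSG00000020027, chr10:95385362-95417180, minus strand), Socs3 (ENSMUSG00000053113, chr11:117966079-117970047, minus strand) and Cish (ENSMUSG00000032578, chr9:107296026-107302784, plus strand).

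The windows before the start sites of the feedback genes and of Stat2 are shown because they carry the motifs that STAT and interferon complexes are known to bind. RefSeq windows on GRCm38.p6, from 250 bases before to 50 bases after a start, were given for 8 of the 9 members (10 windows, none for Socs2). They were searched on both strands for TTCNNNGAA, the STAT site, for TTCNNNNGAA, the spacing that STAT6 also binds, and for GAAANNGAA, the core of an interferon response element, with overlapping matches all counted. Matches stand in capitals in the lines that follow, which hold the 250 bases before the start for Stat2 (chr10:128270248-128270497, plus strand), Socs3 (chr11:117969367-117969616, minus strand) and Socs1 (chr16:10785537-10785786, minus strand), and 30 bases at the start for Cish (chr9:107296654-107296683, plus strand).
Stat2: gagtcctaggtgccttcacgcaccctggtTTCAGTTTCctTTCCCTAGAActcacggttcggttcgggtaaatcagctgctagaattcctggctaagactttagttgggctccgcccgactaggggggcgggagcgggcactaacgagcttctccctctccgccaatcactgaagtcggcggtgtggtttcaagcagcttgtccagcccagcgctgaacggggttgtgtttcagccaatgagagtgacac
Socs3: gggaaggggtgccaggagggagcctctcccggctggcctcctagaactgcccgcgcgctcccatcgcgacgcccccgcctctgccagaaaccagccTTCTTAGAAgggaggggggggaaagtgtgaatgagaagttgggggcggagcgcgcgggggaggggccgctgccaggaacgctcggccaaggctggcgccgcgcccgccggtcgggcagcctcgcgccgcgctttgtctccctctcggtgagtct
Socs1: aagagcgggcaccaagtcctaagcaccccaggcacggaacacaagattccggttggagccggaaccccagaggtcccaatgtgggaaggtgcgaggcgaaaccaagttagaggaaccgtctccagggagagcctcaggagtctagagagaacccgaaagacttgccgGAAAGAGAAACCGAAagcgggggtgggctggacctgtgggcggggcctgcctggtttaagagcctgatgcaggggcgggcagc
Cish: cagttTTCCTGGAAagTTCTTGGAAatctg
Cish held 2 matches of the STAT site, one beginning at the start base and the other 11 bases further on, and Socs3 held 1, which began 154 bases before its start. The 2 interferon cores of Socs1 overlapped and began 83 and 77 bases before the start, and that of Stat2 lay on the opposite strand and began 221 bases before it, next to the only STAT6-spaced match among the members. The windows of Stat3, Stat5a, Stat5b and Stat6 held no match. Among all 32851 windows, 8.30% held the STAT site, 6.95% the STAT6 spacing and 8.56% the interferon core, against 2, 1 and 2 of the 10 windows of the members, and a match of letters does not show that a factor was bound.

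The files list transcript events, such as first exons, last exons and skipped exons, with an FPKM for each, and a gene was given the sum of its first exons or that of its last exons, whichever was higher. In a gene without any row the value was set to 0. Such a 0 does not mean that the gene was silent, because Itgam, which encodes an integrin carried by peritoneal macrophages, had no row in any library. Of the other 7 of 8 macrophage markers, 6 had values in all libraries and Cd14 in 1 library only. Led by Lyz2, the markers had summed levels of 11633 to 14785 FPKM in mock and 7289 to 10057 FPKM in LPS libraries, and the part of this shift in the results was not tested. The libraries correlated at r = 0.958 to 0.974 within a group and 0.806 to 0.973 between groups on the log2(FPKM + 1) scale, and no depth was given.

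Within mock-treated TLR4-WT macrophages the members were ordered Stat6, Stat3, Stat5b, Stat2 and Stat5a. Stat6 measured 46.4 ± 2.65 FPKM (SD, n = 3) and Stat3 measured 20.2 ± 4.99 FPKM. Stat5b at 12.4 ± 0.312 FPKM and Stat2 at 12.1 ± 0.778 FPKM overlapped, and Stat5a followed at 8.30 ± 1.08 FPKM. After LPS the order in this genotype became Stat2, Stat3, Stat6, Stat5a and Stat5b, with means of 70.9, 48.1, 23.2, 12.5 and 8.65 FPKM, and the first 2 of these overlapped between libraries while the others did not. Cish and Socs2 stayed below 3 FPKM throughout.

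**Figure D1:**
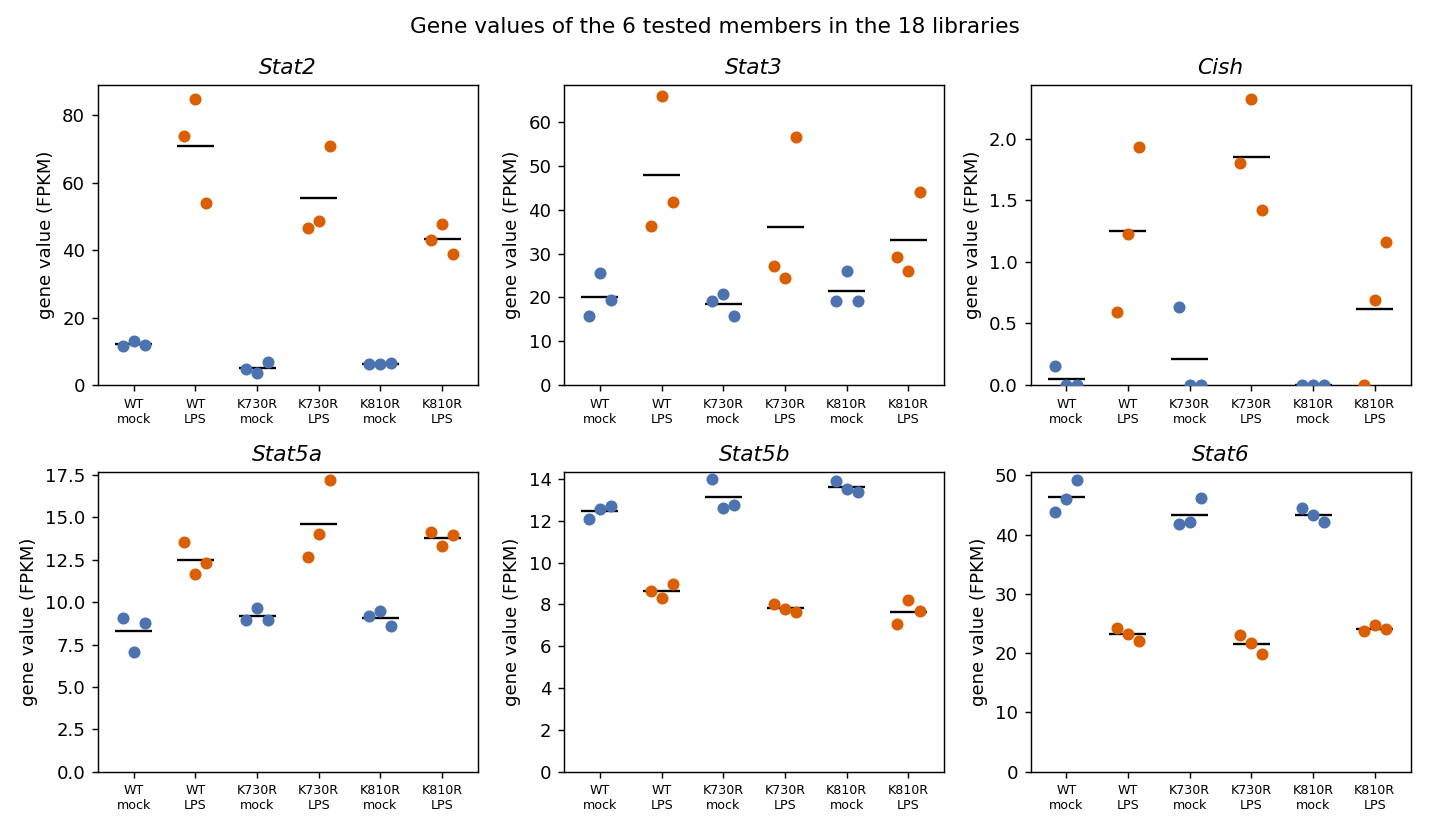
Gene values (FPKM, linear axis from 0) of Stat2, Stat3, Cish, Stat5a, Stat5b and Stat6 in the 6 groups; each point is 1 library, blue for mock and orange for LPS, and the black line is the mean of 3. The LPS points of Stat2 and Stat5a lie above, and those of Stat5b and Stat6 below, the mock points in each genotype, while Stat3 and Cish overlap between mock and LPS in TLR4-K810R.

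The first comparison asked how LPS moved the members in each genotype. In TLR4-WT macrophages all 6 tested members changed at an adjusted p below 0.01 in limma on log2(FPKM + 1), with Stat2, Stat3, Cish and Stat5a higher and Stat5b and Stat6 lower. This count ran from 2 to 6 with libraries left out, the lowest without replicate 2 of all groups, where Stat2 and Stat6 were called, and was 3 (Stat2, Stat3 and Stat6) when only the 2 TLR4-WT groups were fitted. Among all tested genes 10.4% rose and 23.7% fell in this comparison. In TLR4-K730R 3 members rose and 2 fell, against 9.34% and 26.3% of all genes, and in TLR4-K810R 2 rose and 2 fell, against 8.99% and 19.7%. Cish reached 1 FPKM in no mock library and was tested only because of its LPS libraries, so it had to differ. Without it the counts were 3 higher and 2 lower of 5 in TLR4-WT, and 2 higher and 2 lower in each mutant. The median difference over all genes was -0.27, -0.36 and -0.26 in TLR4-WT, TLR4-K730R and TLR4-K810R. Dividing each library by its median ratio to the other libraries brought these medians to -0.04, -0.09 and -0.07 and raised the share of calls that were increases from 30.5%, 26.2% and 31.4% to 49.7%, 48.6% and 47.5%. Under that scaling each of the 6 members kept its direction in each genotype.

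Stat2, the interferon-complex subunit, had the largest LPS difference of the members in each genotype. In TLR4-WT it measured 11.5, 13.0 and 11.8 FPKM without LPS and 73.7, 84.9 and 54.0 FPKM with it. TLR4-K730R had 4.86, 3.67 and 6.82 FPKM against 46.6, 48.7 and 70.9 FPKM. TLR4-K810R had 6.16, 6.36 and 6.56 FPKM against 43.1, 47.8 and 38.8 FPKM. The LPS libraries stood above the mock libraries without overlap in all 3 genotypes. The differences were 2.44 ± 0.20 (SE; adjusted p = 6.14e-08, limma), 3.21 ± 0.20 (adjusted p = 2.41e-09) and 2.58 ± 0.20 (adjusted p = 3.47e-08) on the log2(FPKM + 1) scale, or 5.41-fold, 9.26-fold and 5.99-fold on the FPKM + 1 scale.

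Stat6, the factor of IL-4 signaling, moved the other way. Its values in TLR4-WT were 43.9, 46.1 and 49.1 FPKM without LPS and 24.3, 23.2 and 22.1 FPKM with it. Those in TLR4-K730R were 41.8, 42.1 and 46.2 FPKM against 23.1, 21.7 and 19.9 FPKM, and those in TLR4-K810R were 44.5, 43.2 and 42.1 FPKM against 23.7, 24.7 and 24.0 FPKM. Mock and LPS libraries did not overlap, and each mutant overlapped TLR4-WT in both conditions. Stat6 fell by 0.97 ± 0.09 (adjusted p = 2.16e-07, limma), 0.97 ± 0.09 (adjusted p = 1.91e-07) and 0.82 ± 0.09 (adjusted p = 1.7e-06) on the log2 scale, which is 0.51, 0.51 and 0.57 of the mock level.

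Stat5a and Stat5b encode closely similar proteins from neighbouring genes that start 8626 bp apart and point away from each other on chromosome 11, and how reads shared by both were assigned is not given in the sources used here. Stat5a measured 9.06, 7.06 and 8.79 FPKM in mock-treated TLR4-WT cells and 13.6, 11.7 and 12.3 FPKM after LPS. Stat5b measured 12.1, 12.6 and 12.7 FPKM and, after LPS, 8.65, 8.31 and 8.99 FPKM. The pair therefore traded places: every mock library had more Stat5b than Stat5a, and every LPS library more Stat5a than Stat5b, in all 3 genotypes. Stat5a ran from 8.93 to 9.68 FPKM without and from 12.7 to 17.2 FPKM with LPS in TLR4-K730R. The TLR4-K810R ranges were 8.61 to 9.49 FPKM and 13.3 to 14.1 FPKM. For Stat5b the mock and LPS ranges were 12.6 to 14.0 and 7.62 to 8.03 FPKM in TLR4-K730R. In TLR4-K810R they were 13.4 to 13.9 and 7.06 to 8.22 FPKM.

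The differences of Stat5a were 0.54 ± 0.12 (adjusted p = 0.00149, limma), 0.61 ± 0.12 (adjusted p = 0.000559) and 0.55 ± 0.12 (adjusted p = 0.00153) in TLR4-WT, TLR4-K730R and TLR4-K810R. Stat5b fell by 0.48 ± 0.09 (adjusted p = 0.000364, limma), 0.68 ± 0.09 (adjusted p = 1.16e-05) and 0.76 ± 0.09 (adjusted p = 4.68e-06). After median-ratio scaling the Stat5b difference in TLR4-WT was -0.21 with an adjusted p of 0.073 and was no longer called. The ratio of Stat5a to Stat5b was 0.668 ± 0.0958 (SD, n = 3), 0.702 ± 0.0654 and 0.668 ± 0.0294 in mock-treated cells of the 3 genotypes and 1.45 ± 0.106, 1.88 ± 0.343 and 1.81 ± 0.194 after LPS. A ratio within a library does not depend on how libraries are scaled, and the mock and LPS ranges did not overlap (0.562 to 0.768 against 1.37 to 2.26). The sum of both genes held between 19.6 and 24.8 FPKM in all 18 libraries.

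**Figure D2:**
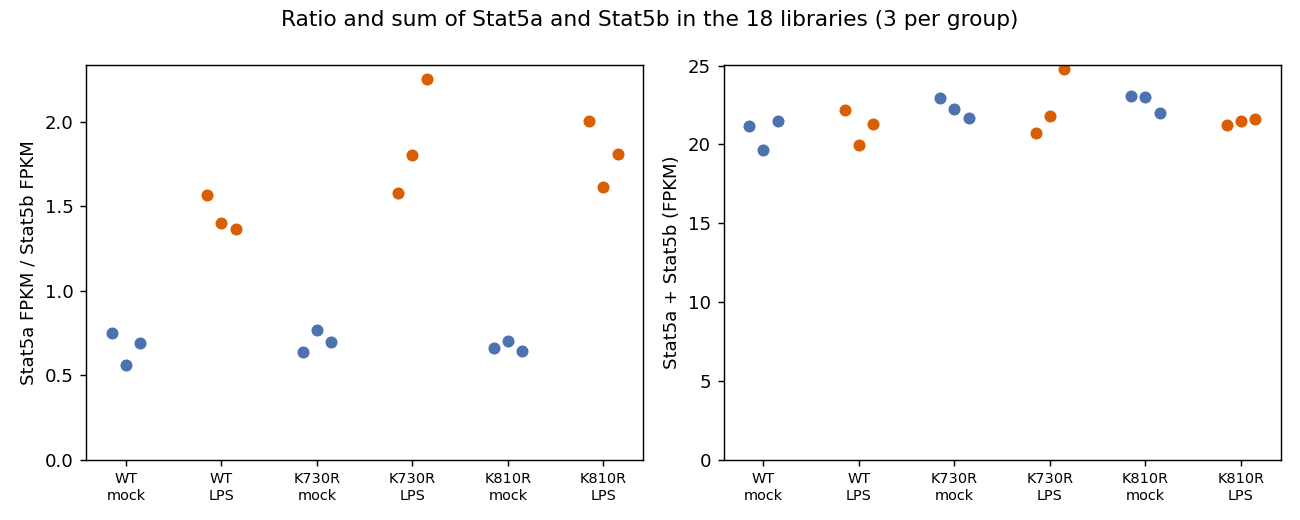
Left, the ratio of Stat5a to Stat5b FPKM; right, their sum in FPKM, for the 3 libraries of each group (blue mock, orange LPS; both axes from 0). The ratio is below 1 in all mock libraries and above 1 in all LPS libraries, whereas the sum keeps one level.

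The first exon listed for Stat5a differed between replicate libraries. The annotated exon at chr11:100859351-100859580 had a row in 12 libraries, while in the other 6 the annotated exon at chr11:100860345-100860576 held 95.4% to 99.3% of the first-exon sum. The 6 were TLR4-WT LPS 1 and 3, TLR4-K730R mock 3 and LPS 3, and TLR4-K810R LPS 2 and 3, so both choices occurred within a group. The last exon, chr11:100883834-100885169, had a row in every library and gave the same order, from 6.89 to 9.49 FPKM in mock and from 11.3 to 15.9 FPKM in LPS libraries. It overlaps the end of Stat3 on the opposite strand by 72 bp, and the files do not say whether strand was used in the assembly.

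Stat3, which relays IL-6 and IL-10, gave the least even values of the well-expressed members. Its first-exon values were 15.7, 25.5 and 19.3 FPKM in mock-treated TLR4-WT cells and 36.4, 66.0 and 41.8 FPKM after LPS. Those of TLR4-K730R were 19.2, 20.7 and 15.6 FPKM against 27.2, 24.5 and 56.7 FPKM. Those of TLR4-K810R were 19.1, 26.02 and 19.3 FPKM against 29.2, 25.99 and 44.1 FPKM. The LPS libraries lay above the mock libraries in TLR4-WT and TLR4-K730R, and overlapped them slightly in TLR4-K810R. The differences were 1.19 ± 0.30 (adjusted p = 0.00404, limma), 0.84 ± 0.30 (adjusted p = 0.0304) and 0.58 ± 0.30 (adjusted p = 0.138), so that only the first was called at 0.01. With median-ratio scaling the TLR4-K730R difference was called too, at 1.18 (adjusted p = 0.00743). Without TLR4-WT mock 1, mock 3 or LPS 2 the TLR4-WT difference was 1.03 (adjusted p = 0.0223), 1.18 (adjusted p = 0.0139) or 0.94 (adjusted p = 0.0264).

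One exon inside Stat3 held more FPKM than the first exons in several libraries, and the other internal events listed for the gene did not exceed the first-exon value in any library. This exon (exon 23 of the full-length transcript, within the coding sequence) can begin at either of 2 acceptors, which separates the full-length form, STAT3 alpha, from the shorter STAT3 beta. It is listed as chr11:100889478-100889590 in the long and chr11:100889478-100889540 in the short form, on the minus strand of GRCm38. The 50 bases that only the long form holds stand in capitals in these lines from the GENCODE M21 transcripts, with 20 bases on each side.
Stat3 long form: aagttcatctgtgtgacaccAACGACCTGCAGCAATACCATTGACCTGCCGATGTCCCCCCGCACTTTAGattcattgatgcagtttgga
Stat3 short form: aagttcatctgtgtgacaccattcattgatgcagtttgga
The sum of the 2 rows gives the FPKM assigned to this exon. That sum was 15.7, 25.5 and 19.3 FPKM in mock-treated and 79.3, 66.0 and 41.8 FPKM in LPS-treated TLR4-WT cells. For TLR4-K730R it was 20.7, 19.97 and 15.6 FPKM against 102, 74.4 and 96.1 FPKM. For TLR4-K810R it was 39.5, 26.02 and 29.0 FPKM against 29.2, 55.9 and 44.1 FPKM. Within TLR4-K730R the LPS libraries stood well apart from the mock libraries by this sum, and within TLR4-K810R they overlapped. The first-exon value reached 26.7%, 33.0% and 59.0% of the sum in the 3 TLR4-K730R LPS libraries. It reached 45.8% in TLR4-WT LPS 1, 48.5% and 66.4% in TLR4-K810R mock 1 and 3, and 46.5% in TLR4-K810R LPS 2. The internal exon at chr11:100907991-100908089 kept to the first exon in the same libraries, at 27.1, 24.4 and 56.6 FPKM in TLR4-K730R LPS and 19.1 FPKM in TLR4-K810R mock 1. The higher values therefore rest on the rows of 1 exon.

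When the largest listed event, which was the long form of that exon in 6 libraries, was used as the gene value, an alternative added after seeing the data, the Stat3 difference was 1.56 ± 0.29 in TLR4-WT (adjusted p = 0.000315, limma) and 2.23 ± 0.29 in TLR4-K730R (adjusted p = 8.84e-06). In TLR4-K810R it was 0.60 ± 0.29 (adjusted p = 0.107), with mock and LPS libraries overlapping. With the same values the Stat3 response was smaller in TLR4-K810R than in TLR4-K730R, by a difference of -1.63 ± 0.40 with an unadjusted p of 0.00103 and an adjusted p of 0.249, and the level after LPS differed by -1.09 ± 0.29 between these mutants (adjusted p = 0.0638). With first-exon values those 2 differences were -0.26 ± 0.42 (adjusted p = 0.906) and -0.06 ± 0.30 (adjusted p = 0.942). The short form made up a median of 0.447% of the sum and under 2% in 14 of 18 libraries. The exceptions were TLR4-WT mock 3 at 2.001%, TLR4-K730R mock 1 at 7.58%, TLR4-WT LPS 3 at 18.2% and TLR4-K810R mock 3 at 34.8%, each 1 library of its group.

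**Figure D3:**
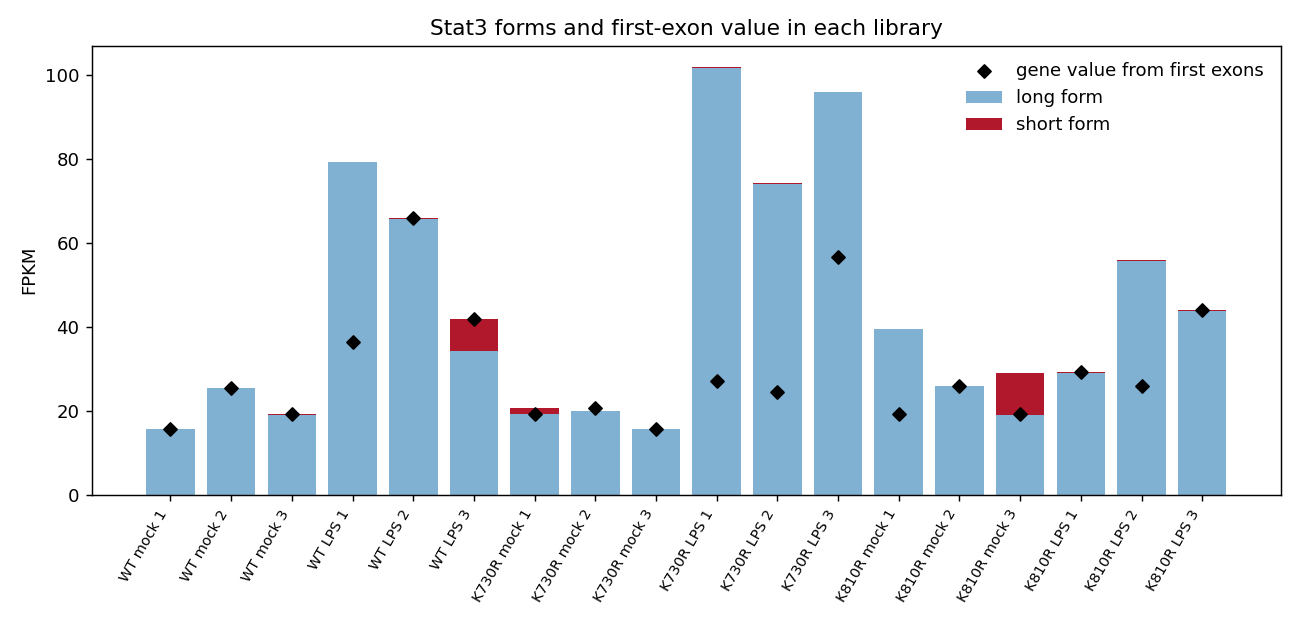
Stat3 in each of the 18 libraries: bars give FPKM of the long (blue) and short (red) form stacked from 0, and black diamonds give the first-exon value. The diamonds reach the top of the bars in most libraries but stay at 26.7% to 59.0% of it in the 3 TLR4-K730R LPS libraries. In TLR4-WT LPS 1, TLR4-K810R mock 1 and 3 and TLR4-K810R LPS 2 they stay at 45.8% to 66.4%.

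Cish, whose product CIS restrains STAT5, was the only feedback gene that passed the filter, at low levels and only through LPS libraries. It was listed at 0.157, 0 and 0 FPKM in mock-treated TLR4-WT cells and at 0.596, 1.22 and 1.93 FPKM after LPS. TLR4-K730R had 0.634, 0 and 0 FPKM against 1.80, 2.32 and 1.42 FPKM. TLR4-K810R had 0 FPKM in all 3 mock libraries against 0, 0.688 and 1.16 FPKM. Mock and LPS libraries were separate in TLR4-WT and TLR4-K730R and shared a 0 in TLR4-K810R. The differences on the log2(FPKM + 1) scale were 1.06 ± 0.28 (adjusted p = 0.00657, limma), 1.26 ± 0.28 (adjusted p = 0.00181) and 0.62 ± 0.28 (adjusted p = 0.0956). Since the filter picked Cish by its LPS libraries, these p-values do not support a rise, and no fold is given against libraries listed at 0. The TLR4-WT call was lost when any 1 of its 6 libraries but LPS 1 was left out (adjusted p from 0.0128 to 0.0349), with a pseudocount of 0.1 (adjusted p = 0.0116) and with library weights (adjusted p = 0.0172), and with the replicate number as a block its adjusted p was 0.0113. In TLR4-K730R it was lost without mock 2 or LPS 2 (adjusted p = 0.0101 for both).

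**Figure D4:**
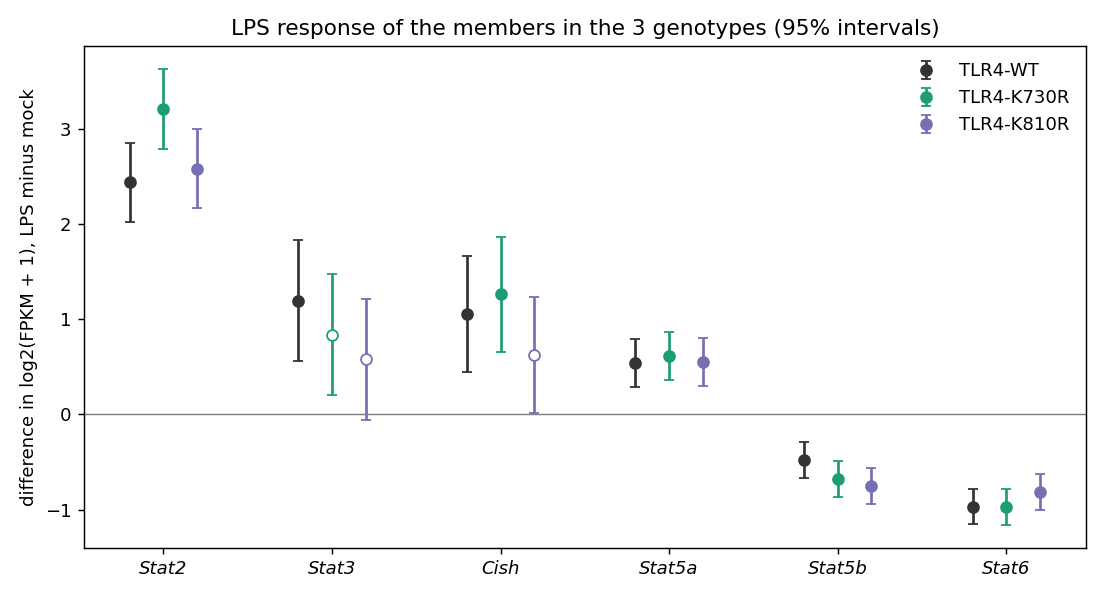
Difference in log2(FPKM + 1), LPS minus mock, of the 6 tested members in TLR4-WT (black), TLR4-K730R (green) and TLR4-K810R (purple), with 95% intervals from limma; filled points passed an adjusted p of 0.01. Stat2, Stat3, Cish and Stat5a lie above 0 and Stat5b and Stat6 below it, and the open points are Stat3 in both mutants and Cish in TLR4-K810R.

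The other feedback genes could not be tested. Socs3, the inhibitor of gp130 signaling, had rows on its own strand in 2 libraries only, TLR4-WT LPS 3 at 31.0 FPKM and TLR4-K730R LPS 2 at 39.7 FPKM, with the first and last exon at the same value in each. In TLR4-WT LPS 1 rows on the opposite strand, at 6.87 FPKM, carried its identifier, and it was listed at 0 in the remaining libraries. Socs2, which restrains growth hormone signaling, was listed in 13 libraries and reached 1.20 FPKM in TLR4-K810R mock 3, its highest value. Its ranges were 0.116 to 0.397 FPKM in mock-treated and 0 to 0.580 FPKM in LPS-treated TLR4-WT, 0 to 0.387 and 0 to 0.253 FPKM for TLR4-K730R, then 0.0262 to 1.20 and 0 to 0.216 FPKM for TLR4-K810R, which overlapped in each genotype. Socs1, the inhibitor of interferon and JAK signaling, had no row and was not analysed.

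The second set of comparisons asked whether a member differed between genotypes. None of the 6 tested members passed an adjusted p of 0.01 in limma in any of the 9 comparisons between genotypes. Against TLR4-WT, the share of all genes called without LPS was 0.305% for TLR4-K730R and 1.59% for TLR4-K810R. With LPS it was 0% for TLR4-K730R, where 729 genes had an unadjusted p below 0.05, and 0.137% for TLR4-K810R. The size of the LPS response differed from that of TLR4-WT in 0.0421% of genes for TLR4-K730R and in 0.126% for TLR4-K810R. Between the mutants 0.0736% of genes were called without LPS, 0.0631% with LPS and 0.0105% in the size of the response. Median-ratio scaling moved the share of calls that were increases from 38.5% to 21.1% in the LPS comparison of TLR4-K810R to wild type, and between the mutants from 50% to 26.7% with LPS and from 14.3% to 0% without. Comparisons with TLR4-WT share its libraries and are not independent of each other.

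At an unadjusted p below 0.05 the members that came up were Stat2, Stat5b and Cish, at most 1 of the 6 in a comparison between genotypes. Of all 9512 genes, 742 passed that level in mock-treated TLR4-K730R, 1338 in mock-treated TLR4-K810R and 2073 in TLR4-K810R with LPS, against TLR4-WT. For response size 668 and 1243 passed in TLR4-K730R and TLR4-K810R. Between the mutants 1796 passed with LPS and 831 for response size. Passing this level therefore does not by itself set a member apart. Stat2 was lower without LPS in both mutants, with libraries that did not overlap those of TLR4-WT, by 1.13 ± 0.20 in TLR4-K730R (unadjusted p = 3.75e-05, adjusted p = 0.0119, limma) and by 0.83 ± 0.20 in TLR4-K810R (unadjusted p = 0.000737, adjusted p = 0.0276) on the log2 scale. These are 0.46 and 0.56 of the TLR4-WT level on the FPKM + 1 scale, with 95% intervals of 0.34 to 0.61 and 0.42 to 0.75. With LPS the differences were -0.35 ± 0.20 (adjusted p = 0.695) and -0.68 ± 0.20 (unadjusted p = 0.00341, adjusted p = 0.0715). The Stat2 response to LPS was larger by 0.78 ± 0.28 in TLR4-K730R than in TLR4-WT (unadjusted p = 0.0137, adjusted p = 0.58), and smaller by a difference of -0.63 ± 0.28 in TLR4-K810R than in TLR4-K730R (unadjusted p = 0.0389, adjusted p = 0.558). The lower Stat2 of TLR4-K730R without LPS passed 0.01 with a pseudocount of 0.1, with library weights and without TLR4-K730R mock 3.

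Stat5b fell further with LPS in TLR4-K810R than in TLR4-WT, by a difference of -0.28 ± 0.13 (unadjusted p = 0.0428, adjusted p = 0.356, limma). Cish was lower in TLR4-K810R than in TLR4-K730R after LPS, by a difference of -0.88 ± 0.28 (unadjusted p = 0.00756, adjusted p = 0.119), which is a description, since Cish passed the filter only through LPS libraries and in all 3 of TLR4-K730R but 1 of TLR4-K810R. Against TLR4-WT, the 95% interval of the log2 difference of Stat6 lay within -0.28 to 0.09 without LPS in both mutants. After LPS it lay within -0.29 to 0.08 for TLR4-K730R and -0.13 to 0.24 for TLR4-K810R. That of Stat5a lay within -0.12 to 0.39 in TLR4-K730R and -0.13 to 0.38 in TLR4-K810R without LPS, and within -0.05 to 0.46 and -0.12 to 0.39 with it.

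Genes that interferon induces through the STAT2 complex were read next to Stat2. LPS raised 15 of the 16 tested in each genotype, with median differences of 3.98, 5.19 and 5.09, and the exception was Isg15, an antiviral ubiquitin-like protein. It was at 0 in every mock library and in TLR4-K730R after LPS as well, and its adjusted p was 0.0311 in TLR4-WT and 0.0404 in TLR4-K810R (limma). Cxcl10, a chemokine for T cells, went from 4.43 to 741 FPKM in TLR4-WT (7.03 ± 0.40, adjusted p = 1.28e-09), and Mx1, an antiviral GTPase, from 9.20 to 400.03 FPKM (5.23 ± 0.30, adjusted p = 1.12e-09). Rsad2, the antiviral enzyme viperin, differed by 5.13 ± 0.32 (adjusted p = 3.68e-09) in TLR4-WT. Isg15 and Ifi44, the latter at 0.335 and 39.996 FPKM, passed the filter only through LPS libraries. The other 14 all rose in each genotype, against 10.4%, 9.34% and 8.99% of all genes. Without LPS, 7 of the 16 were lower in TLR4-K730R than in TLR4-WT and 11 in TLR4-K810R, with median differences of -1.50 and -2.01 beside 0.03 and 0.07 over all genes, of which 0.242% and 0.652% were called lower. Median-ratio scaling removed the call of Mx1 in TLR4-K730R. With LPS 0 of the 16 were called between a mutant and TLR4-WT (limma), with medians of -0.26 and -0.77, while 4 in TLR4-K730R and 12 in TLR4-K810R had an unadjusted p below 0.05. Of all 9512 genes 729 and 2073 did. Tested by the size of the LPS response, 2 of the 16 were called larger than in TLR4-WT in both mutants, beside 0.0421% and 0.126% of all genes called for TLR4-K730R and TLR4-K810R. These were Oas3, an antiviral sensor of double-stranded RNA (2.11 ± 0.25, adjusted p = 0.00124, and 2.39 ± 0.25, adjusted p = 0.000241, limma), and Ifit3, an antiviral protein (1.99 ± 0.23, adjusted p = 0.00107, and 2.17 ± 0.23, adjusted p = 0.000241). The median response difference of the list was 1.11 and 1.01 beside -0.06 and 0.03 over all genes, and 11 of the 16 had an unadjusted p below 0.05 in each mutant. Of all 9512 genes 668 in TLR4-K730R and 1243 in TLR4-K810R did. These comparisons use the same mock libraries in which the targets were lower, and are not independent of that difference. Their mean log2(FPKM + 1) ran from 3.61 to 3.66 in mock-treated TLR4-WT, 2.23 to 2.35 in TLR4-K730R and 1.99 to 2.06 in TLR4-K810R. Both mutants thus lay below TLR4-WT for the targets as for Stat2, although Stat2 was the lower in TLR4-K730R by its mean and the targets in TLR4-K810R. The mock Stat2 values of the 2 mutants overlapped, with a difference of 0.30 ± 0.20 (adjusted p = 0.694, limma). Without LPS 0 of the 16 targets were called between the mutants. The genes whose levels followed Stat2 most closely over the 18 libraries were Cmpk2 (Pearson r = 0.992), Mx1 (0.990) and Dtx3l (0.990), as a description, since the libraries share their 2 treatments.

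**Figure D5:**
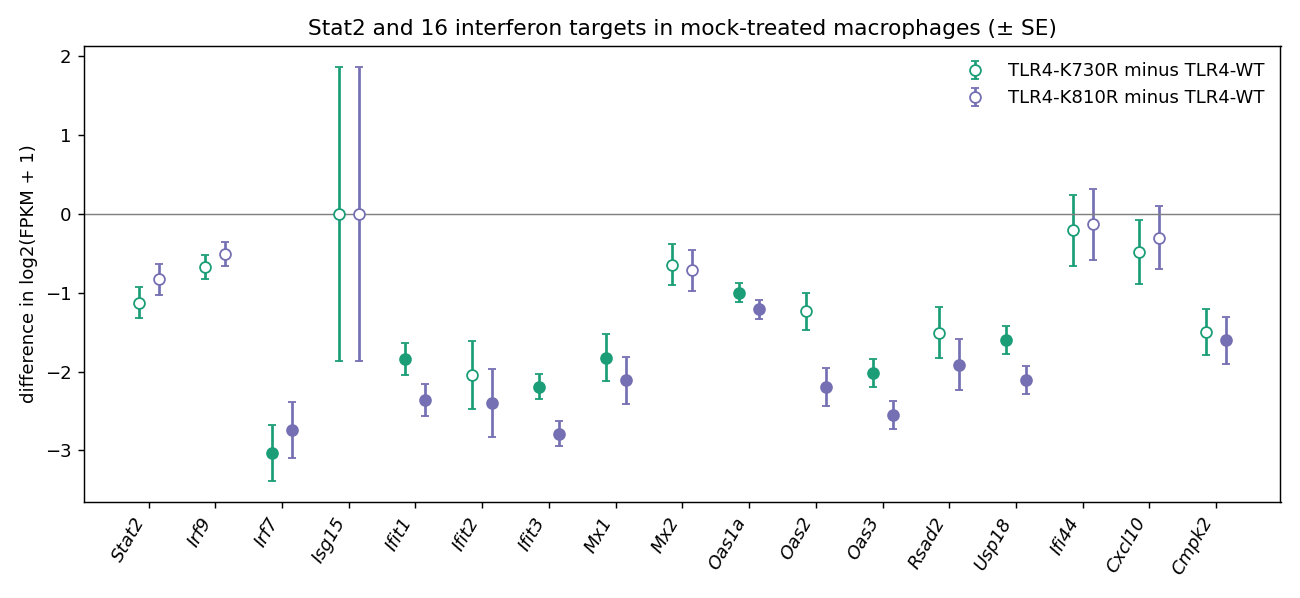
Difference in log2(FPKM + 1) of Stat2 and 16 interferon targets between mock-treated mutant and mock-treated TLR4-WT macrophages (green TLR4-K730R, purple TLR4-K810R; bars are 1 SE; filled points passed an adjusted p of 0.01). Apart from Isg15, which was at 0 in all mock libraries, the points lie below 0, and 7 green and 11 purple ones are filled.

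Markers of other cells moved with some of these groups. The 4 markers of resident peritoneal macrophages summed to 177 to 211 FPKM in mock-treated TLR4-WT, 134 to 140 FPKM in TLR4-K730R, then 78.9 to 95.2 FPKM for TLR4-K810R, most of it Cd5l, while Gata6 ran the other way, from 1.13 to 1.47, 1.45 to 2.34 and 4.23 to 10.9 FPKM. The 7 mesothelial and fibroblast markers summed to 31.3 to 48.2, 59.5 to 68.2 and 113 to 274 FPKM in the same groups, and 7 intestinal epithelial markers to 0.118 to 0.594, 7.53 to 37.0 and 11.5 to 52.6 FPKM. Their part in the lower Stat2 of the mutants was not tested. After LPS the resident markers summed to 73.4 to 118, 66.5 to 105 and 40.2 to 45.4 FPKM in TLR4-WT, TLR4-K730R and TLR4-K810R. The mesothelial and fibroblast markers summed to 42.7 to 141, 47.3 to 47.7 and 101 to 121 FPKM. Intestinal markers summed to 0 to 10.9, 8.77 to 13.6 and 0.127 to 5.15 FPKM. The part of these shifts in the LPS differences was not tested. The 6 neutrophil markers summed to 25.4 to 47.3 FPKM in mock and 172 to 245 FPKM in LPS libraries, almost all of it S100a8, and Ly6g and Cxcr2 stayed at or below 0.644 and 0.132 FPKM. B cell markers summed to at most 3.66 FPKM with Pax5 and Ighm at 0, T cell markers to at most 0.958 FPKM with Lck at 0, and eosinophil markers to at most 2.79 FPKM with Epx and Prg2 at 0. Mast cell markers, with Fcer1a and Ms4a2 at 0, summed to 4.26 to 4.70 FPKM in mock-treated TLR4-WT, above the 0.494 to 1.65 FPKM of TLR4-K730R and the 0.797 to 2.64 FPKM of TLR4-K810R, and their part in the lower Stat2 and interferon targets was not tested. Dendritic cell markers, led by Ccr7 with Flt3 and Xcr1 at 0, summed to 0.0888 to 1.96 FPKM in mock and 3.03 to 5.76 FPKM in LPS libraries, and their part in the LPS differences was not tested. Lung epithelial markers, mostly Scgb1a1, summed to 25.0 and 34.7 FPKM in TLR4-K810R LPS 2 and 3 and to at most 3.94 FPKM in the other libraries, and their part in the results was not tested. In bulk RNA, fewer cells of a type and less RNA per cell cannot be told apart.

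Upstream of the STATs, 9 of the 11 tested ligands were called higher with LPS in TLR4-WT and in TLR4-K730R and 6 in TLR4-K810R, against 10.4%, 9.34% and 8.99% of all genes. However, 7 of the 11 (Il6, Il10, Lif, Csf3, Il27, Il12a and Il12b) passed the filter only through LPS libraries and had to differ, so their values are a description. Of the other 4, 2 rose in TLR4-WT and TLR4-K730R (Ebi3, a subunit of IL-27, and Osm) and 1 in TLR4-K810R (Ebi3). In TLR4-WT, Csf3, the granulocyte growth factor, was listed at 0 in mock libraries and averaged 39.2 FPKM after LPS, and Il12a, a subunit of IL-12 and IL-35, was listed at 0 and averaged 21.6 FPKM. Il6, a STAT3 ligand, averaged 0.0882 and 29.9 FPKM, and Il27, a subunit of another STAT3 ligand, 0.335 and 18.7 FPKM. As to size, the LPS response was called different from that of TLR4-WT for 0 of the 11 in either mutant (limma), and 0 in TLR4-K730R and 3 in TLR4-K810R had an unadjusted p below 0.05. Of all 9512 genes 668 and 1243 did. After LPS, Il12b, a subunit of IL-12 and IL-23, ran from 12.4 to 18.9 FPKM in TLR4-K730R and from 3.21 to 6.17 FPKM in TLR4-K810R. As a description, it differed from TLR4-WT after LPS by 0.42 ± 0.20 and -1.23 ± 0.20. In level after LPS, 0 of the 11 were called against TLR4-WT in either mutant, and median-ratio scaling added Il12b in TLR4-K810R. There 4 of the 11 had an unadjusted p below 0.05, beside 2073 of all 9512 genes, and in TLR4-K730R 0 had. Clcf1, Il23a, Il4 and Ifnb1 were listed at 0 throughout, and Csf2, Il11 and Il13 were too low to test.

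Among the 17 tested receptors of 22 listed, 5 rose and 3 fell in TLR4-WT. In TLR4-K730R 4 rose and 2 fell, and in TLR4-K810R 6 rose and 2 fell. Of all genes 10.4%, 9.34% and 8.99% rose and 23.7%, 26.3% and 19.7% fell in the 3 genotypes, shares that also stand behind the lists that follow. Median-ratio scaling gave 7 higher and 2 lower in TLR4-WT and in TLR4-K730R and left the TLR4-K810R counts as they were. The 7 in TLR4-WT included Osmr, which passed the filter only through LPS libraries, so its call is a description. Among the other 16 receptors the unscaled counts were the same. In TLR4-WT, Il15ra, the IL-15 presenting chain, went from 1.45 to 19.1 FPKM (3.04 ± 0.43, adjusted p = 2.84e-05, limma) and Il4ra, the chain that activates STAT6, from 17.9 to 68.9 FPKM (1.86 ± 0.24, adjusted p = 1.26e-05). Il6st, the shared chain gp130, fell by 1.82 ± 0.52 (adjusted p = 0.009), a call that median-ratio scaling removed, and Ifngr1, an interferon gamma receptor chain, fell by 1.53 ± 0.32 (adjusted p = 0.00106). Stat6 and Il4ra thus moved in opposite directions in the same libraries.

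Of the kinases, Jak2, which serves the receptors of GM-CSF and interferon gamma, went from 6.44 ± 2.05 to 55.0 ± 9.47 FPKM (SD, n = 3) in TLR4-WT, a difference of 2.94 ± 0.22 (adjusted p = 2.78e-08, limma). It also rose in TLR4-K730R (2.69 ± 0.22, adjusted p = 7.25e-08) and TLR4-K810R (1.97 ± 0.22, adjusted p = 3e-06). Jak1 measured 52.1 and 45.5 FPKM (-0.19 ± 0.08, adjusted p = 0.0654) and Tyk2, the interferon receptor kinase, 17.5 and 12.03 FPKM (-0.52 ± 0.19, adjusted p = 0.0343) in TLR4-WT, and neither was called in it. In TLR4-K730R Jak1 fell by 0.34 ± 0.08 (adjusted p = 0.00274), which turned to the other sign under median-ratio scaling. Jak3 had no value.

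None of the 4 remaining SOCS genes was called higher with LPS. Socs6 fell with LPS by 1.46 ± 0.36 in TLR4-WT (adjusted p = 0.00371, limma), 2.10 ± 0.36 in TLR4-K730R (adjusted p = 0.00019) and 2.69 ± 0.36 in TLR4-K810R (adjusted p = 2.1e-05), and the first of these calls was lost under median-ratio scaling. Socs4, Socs5 and Socs7 had differences of -0.24 ± 0.14 (adjusted p = 0.182), -0.92 ± 0.31 (adjusted p = 0.0224) and -0.40 ± 0.12 (adjusted p = 0.0139) in TLR4-WT and were not called. In the mutants 1 further gene fell in each, Socs7 in TLR4-K730R and Socs4 in TLR4-K810R, and both calls were lost under that scaling. The list thus had 1, 2 and 2 of 4 genes lower, beside 23.7%, 26.3% and 19.7% of all genes. Of the 12 other inhibitors, 3 rose and 2 fell in TLR4-WT, 3 rose in TLR4-K730R, and 1 rose and 2 fell in TLR4-K810R, beside 23.7%, 26.3% and 19.7% of all genes lower. Median-ratio scaling gave 4 higher and 0 lower, 5 higher and 0 lower, and 4 higher and 1 lower, so the balance in TLR4-K810R turned over. Usp18, which blocks the interferon receptor and is also in the interferon list, went from 20.8 to 249.5 FPKM in TLR4-WT (3.52 ± 0.18, adjusted p = 3.17e-10), the phosphatases Ptpn2 and Dusp2 differed by 1.11 ± 0.19 (adjusted p = 0.000157) and 1.02 ± 0.21 (adjusted p = 0.00084), and the adaptor Sh2b3 fell by 0.75 ± 0.16 (adjusted p = 0.00126), a call that the scaling removed.

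Targets of the other STATs moved in both directions. Of 10 tested STAT3 targets, 5 rose and 3 fell in TLR4-WT and in TLR4-K730R, and 5 rose and 2 fell in TLR4-K810R, with 10.4%, 9.34% and 8.99% of all genes higher. Median-ratio scaling removed the lower calls of Etv3 and Myc in TLR4-WT and TLR4-K730R and added Sbno2 as higher in all 3 genotypes. Il1rn, the IL-1 receptor antagonist, differed by 4.68 ± 0.27 (adjusted p = 1.41e-09, limma), Il4ra as given above, Bcl3, a nuclear cofactor of NF-kB, by 1.68 ± 0.11 (adjusted p = 4.55e-09), and Pim1, a survival kinase, by 1.52 ± 0.24 (adjusted p = 8.51e-05) in TLR4-WT. Of 8 STAT5 targets, 3 rose and 1 fell in TLR4-WT and in TLR4-K730R, and 1 rose in TLR4-K810R. Of all genes 23.7%, 26.3% and 19.7% fell in the 3 genotypes. Besides Pim1, those that moved were Ccnd2, a cyclin that passed the filter only through LPS libraries and averaged 0.137 and 4.07 FPKM, Osm, a cytokine that is also in the ligand list, at 0.86 ± 0.21 (adjusted p = 0.00285), and Igf1, a growth factor, which fell by 1.38 ± 0.26 (adjusted p = 0.000384). Without Ccnd2, which had to differ, 2 of the other 7 rose and 1 fell in TLR4-WT and in TLR4-K730R, and 1 rose in TLR4-K810R.

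Of 9 tested STAT6 targets, 2 rose and 3 fell in TLR4-WT and in TLR4-K730R, and 2 rose and 2 fell in TLR4-K810R, with a median of -0.50 in TLR4-WT beside -0.27 over all genes, of which 10.4% rose and 23.7% fell. The median in TLR4-K730R was -0.09 and turned to 0.24 under median-ratio scaling, which also removed the call of Klf4, a macrophage transcription factor, in TLR4-WT and TLR4-K730R. Pparg, a lipid-sensing nuclear receptor, fell by 3.76 ± 0.27 (adjusted p = 2e-08, limma) and Mrc1, the mannose receptor, fell by 1.95 ± 0.13 (adjusted p = 5.29e-09) in TLR4-WT. Ccl22, a chemokine that passed the filter only through LPS libraries and had to differ, averaged 0.877 and 7.35 FPKM. Without Ccl22, 1 of the other 8 rose in each genotype, and 3, 3 and 2 fell in TLR4-WT, TLR4-K730R and TLR4-K810R. Retnla, a secreted protein of IL-4-treated macrophages, was lower in TLR4-K810R than in TLR4-WT without LPS (-3.23 ± 0.33, adjusted p = 4.43e-05) and with it (-2.51 ± 0.33, adjusted p = 0.00298), and lower than in TLR4-K730R without LPS (-2.46 ± 0.33, adjusted p = 0.00325). The lists share genes and rest on general knowledge of the pathway, so a count says only how many members moved.

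Over the 18 libraries, the genes that ran most nearly parallel to the other members were March5 (r = 0.889), Timeless (0.888) and Slc16a1 (0.887) for Stat3, Tubb6 (0.956), Rassf1 (0.955) and Rps6ka4 (0.941) for Stat5a, and Arhgef6 (0.981), Serinc3 (0.980) and Arhgap19 (0.979) for Stat5b. For Stat6 they were Bhlhe40 (0.991), Daglb (0.989) and Zfp395 (0.989), and for Cish Hmcn2 (0.936), Gm14005 (0.920) and Zhx2 (0.899). Each r is a description over libraries that share their treatment.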

How the data were processed

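RNA-seq of 18 libraries (6 groups of 3) was analysed. The deposited files give FPKM per transcript event in each library, made by the authors, with 80071 to 90401 rows of 20 event types. The aligner, assembler and strand setting are not given in the sources used here, and the submitters' processing notes name the human build hg18, while identifiers and coordinates are mouse and match GRCm38 (GENCODE M21). FPKM holds no counts, so depth is unknown and no counting interval can be given.

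A gene was given the sum of its first-exon or of its last-exon FPKM, whichever was higher, over events on its strand and within its span; 8.5% of the FPKM of end events was dropped by this. The 9512 genes that reached 1 FPKM in 3 or more libraries were tested with limma 3.58.1 (R 4.3.3; intensity trend, all 18 libraries in 1 fit) on log2(FPKM + 1), with Benjamini-Hochberg adjustment over all of them and calls at 0.01. The fit was tested on simulated data. Differences on this scale understate the change of low genes. Alternatives were another pseudocount, other filters, scaling, weights, fits, gene values and left-out libraries. Same-numbered libraries did not deviate together (r = -0.31 to 0.10 over 45 pairs), so numbers were not taken as pairs. Named were all members, up to 4 genes per list with the largest called difference in TLR4-WT (lists of up to 4 tested genes whole) and 3 neighbours per member by Pearson r. One gene that this rule names is not reported here. Members and lists were chosen with earlier results of these data known. Promoters came from RefSeq (GRCm38.p6).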

Additional observations from a re-analysis of the deposited data

Results flagged for a closer look

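Socs3 stood out among the genes that could not be tested. It reached 39.7 FPKM in TLR4-K730R LPS 2 and 31.0 FPKM in TLR4-WT LPS 3, while it was listed at 0 on its own strand in the other 16 libraries, including all 9 mock libraries. A missing row does not show that the gene was low in those libraries, and no test was made.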

How the results depend on the processing

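Of 400 values of the LPS differences of single members under the alternatives, 0 changed direction, 365 stayed on the same side of the threshold, 32 fell short of it (25 of them with libraries left out) and 3 newly passed it. The number of members called for LPS in TLR4-WT, 6 of 6, was 3 when only the 2 groups compared were fitted, and 3 with last-exon sums, where only Stat5a, Stat5b and Stat6 had enough signal to be tested; the last-exon count was also 3 in TLR4-K730R. For mock-treated TLR4-K730R against TLR4-WT it was 1 (Stat2) instead of 0 with a pseudocount of 0.1, with library weights and at an adjusted p below 0.05, and for TLR4-K810R it was 1 at 0.05. With libraries left out, singly or as 1 replicate number from all groups (an alternative chosen after seeing the data), the counts ran from 2 to 6 in TLR4-WT, from 3 to 5 in TLR4-K730R, from 3 to 4 in TLR4-K810R and from 0 to 1 for mock-treated TLR4-K730R against TLR4-WT; the cause was not tested beyond the smaller number of libraries.

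With the replicate number as a block, 5, 5 and 4 members were called for LPS in TLR4-WT, TLR4-K730R and TLR4-K810R and 0 in every comparison between genotypes. Only 1 of the 18 libraries correlated best with its own number. FPKM carries no depth, so genes near 0, such as Cish and Socs2, have an unknown counting error.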
